A study of Zea mays with 10 samples.

Results

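The distal end of the long arm of maize chromosome 1 was examined in small RNA libraries, as 100 kb windows from 270 Mb to the last window, at 301.3 Mb. Windows within the region were taken by position alone, but the region itself was chosen with earlier results of these data known. There were 314 of them among 20584 windows in the genome, and each was listed with reads in all 10 libraries. The last window before the limit, at 269.9 Mb, held 20.4 to 29.8 CPM, the reads of a window scaled to the library total, over the 10 libraries, and the window at 270 Mb held 55.7 to 72.0 CPM.

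The libraries were made from 14-day-old maize (Zea mays) seedlings kept with 15 h light and 9 h darkness a day. Each line and tissue is a single library (n = 1). Leaf was sequenced in the lines 714 (genotype P1-ww714), 714H (P1-ww714/B73, the 714 allele over B73), 9d9a (genotype P1-vv9d9a), id1 (whose genotype is P1-wwid1), id4 (with genotype P1-wwid4) and the inbred B73, and root in id1, id4, 9d9a and B73. The sample titles name leaf, while the tissue field of those libraries says seedling, and the files hold windows rather than genes, so neither tissue could be checked against marker genes. A line is known here by its p1 allele only. The rest of its genome may also differ from B73, so the allele and the background of a stock cannot be told apart. The number of plants behind a library is not stated, so a p-value reflects how far libraries spread, which may be technical.

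Small RNAs of plants comprise microRNAs, which arise from hairpin precursors at single loci, and short interfering RNAs (siRNAs), which guide DNA methylation to transposons and repeats. In maize many siRNAs come from sequence beside genes, and gene density is highest toward the chromosome ends. The p1 gene, which encodes a Myb-type regulator of red pigments in cob and pericarp, lies on the short arm of the same chromosome. Read lengths and sequences are not in the window counts, so microRNAs and siRNAs were not separated.

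Libraries held 8472011 to 18396214 reads, of which 196469 to 372783 fell in the distal windows. The deepest was B73 leaf, against 8472011 to 10017497 reads in the other leaf libraries and 10921854 to 12160298 in root. A distal window had a median of 407 to 730.5 reads per library, which leaves a counting error (SE) of 4.96% to 3.70%. These errors cover counting only, since no molecular identifiers mark the original molecules.

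The distal windows were read more than most of the genome. Their median level was 48.5 CPM (quartiles 24.8 and 86.7), as a mean over libraries, against 27.4 CPM (8.82 and 61.5) for the 20270 windows elsewhere. Levels under 10 CPM were found in 8.60% of the distal windows and in 26.9% elsewhere, and levels over 100 CPM in 19.1% and 12.2%. Along the arm the level hardly followed position, with a Spearman rank correlation between position and level of 0.01 in leaf and 0.02 in root across 314 neighbouring windows, which share libraries. By 5 Mb interval the median lay between 42.1 CPM, at 275 to 280 Mb, and 60.9 CPM, at 295 to 300 Mb. The last 14 windows, from 300 Mb, were lower at 29.7 CPM.

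A single window held a large part of the reads. At 299.6 Mb the level was 3440 CPM in id1 leaf, 2852 in id4, 3360 in 9d9a, 2929 in 714, 3587 in 714H and 3390 in B73. Root id4 and 9d9a held 3034 and 3093 CPM, root id1 held 1665 and root B73 1723 CPM. The root libraries thus fell into a higher and a lower pair, while the leaf libraries lay between 2852 and 3587 CPM. This window made up 7.42% to 16.7% of the distal reads of a library. Its log2 difference of leaf over root, 0.42, did not pass the test (edgeR adjusted p = 0.207).

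The next windows by level were far below it. That at 274.4 Mb averaged 343 CPM, with 189 CPM in id1 root and 456 in 9d9a root as its extremes. The windows at 291.8, 289.5, 297.1 and 297.0 Mb averaged 313.5, 281, 278 and 247 CPM, and those at 285.0, 286.4, 300 and 273.0 Mb averaged 234 to 213 CPM. At the other end, the window at 284.3 Mb had 2 to 11 reads per library, and those at 285.4 and 294.3 Mb had 3 to 19 and 6 to 16.

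The comparison of lines with B73 asks where lines that carry other p1 alleles differ in small RNA from the inbred. Over the distal windows every other line lay above B73, in leaf and in root. The region took 2.34% of all reads in id1 leaf, 2.25% in id4, 2.32% in 9d9a, 2.37% in 714 and 2.41% in 714H, against 2.03% in B73 leaf. Root libraries gave 2.24% for id1, 2.31% for id4 and 2.36% for 9d9a, against 2.06% in B73. Both B73 libraries were below every other library. The mean difference of the other lines from B73 was 0.277 percentage points, with p = 0.0417 in an exact two-sided permutation test that moved the B73 label within each tissue. That is the smallest p the 24 placements can give, and the comparison was chosen after the shares were seen. The label was moved in leaf and root separately, although both libraries of a line deviated together (correlations 0.63 to 0.85). This p therefore treats them as independent and is too small for a comparison of lines. Without the most read 1% of windows in the genome the difference was 0.284 points. B73 also had the most reads of its tissue, with 18396214 in leaf and 12160298 in root, and the part of depth in the result was not tested.

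**Figure D1:**
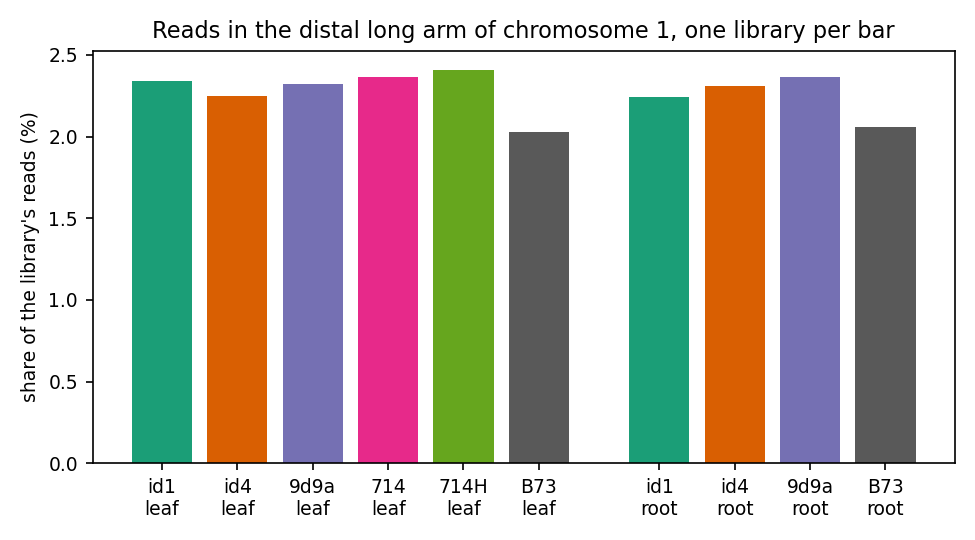
Share of each library's reads that fell in the 314 distal windows of chromosome 1 (%), 1 bar per library, with leaf on the left and root on the right. The B73 bars, at 2.03% in leaf and 2.06% in root, are the lowest of their tissue.

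The difference was spread over many windows. On the scale log2(CPM + 1), with CPM from library totals, the median ratio to B73 in leaf was 0.24 in id1, 0.23 in id4, 0.22 in 9d9a, 0.24 in 714 and 0.25 in 714H, which is 1.16- to 1.19-fold. The root medians were lower, 0.14 for id1, 0.09 for id4 and 0.10 for 9d9a, or 1.07- to 1.10-fold. With TMM-adjusted library sizes 9d9a root was at 0.18, above id1. Over all windows elsewhere the medians were 0.00, 0.02, 0.00, 0.03 and 0.00 in leaf and 0.01, -0.01 and -0.08 in root, in the same orders. Between 245 and 260 of the 314 windows lay above B73 in the leaf libraries, and between 198 and 234 in the root libraries. All these ratios share the B73 library of their tissue, so they are not independent of each other. Among the 7613 windows elsewhere whose level lay within the quartiles of the distal windows, the medians ran from -0.06 to 0.03.

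Stretches of equal length at the other 19 chromosome ends were set beside it. The distal long arm of chromosome 1 had the highest median ratio to B73 of all 20 ends in 7 of the 8 libraries. The exception was id4 root, where the end of the long arm of chromosome 6 was at 0.11. That end was the nearest in the 5 leaf libraries too, with medians of 0.08 in id1, 0.19 in id4, 0.16 in 9d9a, 0.16 in 714 and 0.13 in 714H.

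**Figure D2:**
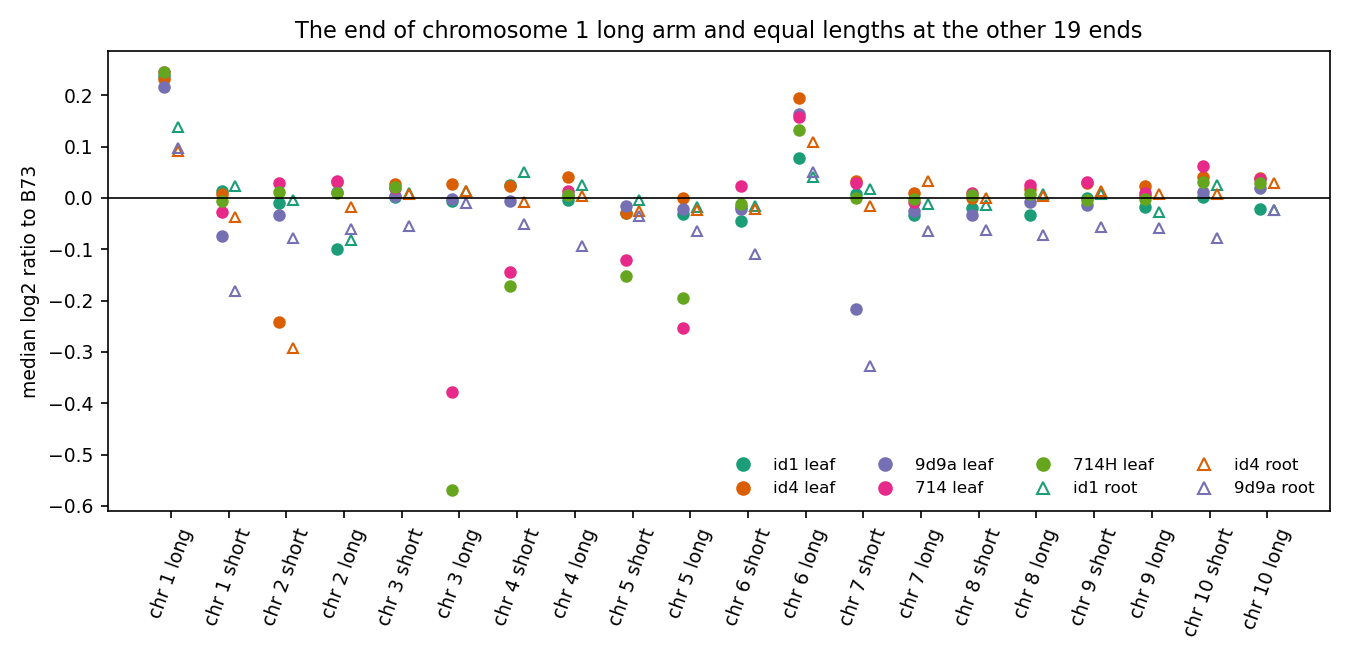
Median log2 ratio to B73 of the same tissue for the 309 to 314 windows averaging 5 counts or more at each of the 20 chromosome ends. Filled circles are leaf and open triangles root libraries, coloured by line. In leaf the long arm of chromosome 1 is at 0.22 to 0.25, and the long arm of chromosome 6 is the next end in height.

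The excess was larger in the middle of the region than toward the chromosome end. From 280 to 285 Mb the leaf medians were 0.33 to 0.42 and the root medians 0.18 to 0.28. From 290 to 295 Mb the leaf medians were 0.20 to 0.34, and 9d9a leaf was highest there. From 295 to 300 Mb they were 0.07 to 0.18 in leaf and -0.05 to 0.04 in root, and in the last 14 windows -0.04 to 0.12 and -0.07 to 0.06. The limit at 270 Mb did not mark its start, since the interval from 265 to 270 Mb had leaf medians of 0.19 to 0.28. Before that the leaf lines differed. Their medians were 0.01 to 0.11 from 260 to 265 Mb, and from 255 to 260 Mb they ran from -0.31 in 714H to 0.25 in id4. In 2 Mb bins the leaf lines had peaks at 282 to 284 Mb (0.43 to 0.52) and, apart from id4, again at 290 to 292 Mb (0.45 to 0.56), where those 4 lines had their highest values. In that second bin id4 was at 0.19 in leaf and 0.05 in root, against 0.25 in id1 root and 0.29 in 9d9a root. From 296 to 298 Mb id4 root was at -0.35, whereas id4 leaf was at 0.02 and the other root libraries at 0.01 and -0.04.

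**Figure D3:**
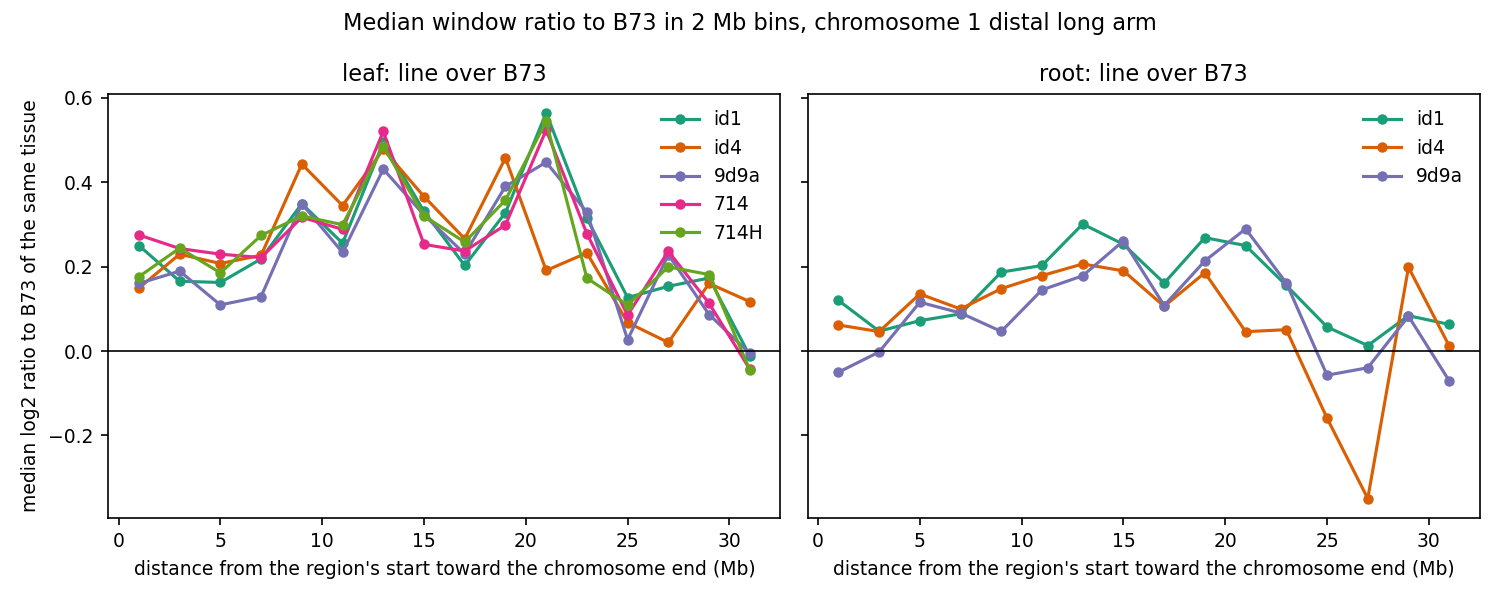
Median log2 ratio to B73 in 2 Mb bins against distance from the start of the region (Mb), for leaf (left) and root (right), 1 line per maize line. Leaf values are above 0 in all bins but the last. Root values are mostly lower, and id4 root falls to -0.35 in the bin that starts 26 Mb from the limit.

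Window by window, the lines were tested against B73 over both tissues with edgeR. In id1, 55 of 313 windows rose and 6 fell. Of all windows tested 1.94% rose and 3.58% fell in id1, or 5.51% in either direction. In id4, 41 rose and 5 fell, against 1.42%, 3.09% and 4.51% genome-wide. In 9d9a, 48 rose and 1 fell, against 1.54%, 3.08% and 4.62%. As shares of the distal windows, 17.6%, 13.1% and 15.3% rose in id1, id4 and 9d9a. Both id1 and id4 had a median log2 change of 0.19 and 9d9a of 0.21, and it was 0.00 to 0.01 over all windows tested. DESeq2 called 35, 25 and 32 distal windows that rose, counts without a share over all windows beside them.

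Because those comparisons share the B73 libraries, the mean of id1, id4 and 9d9a was also tested against B73 in a single contrast, added after the pattern was seen. In it 76 of 313 distal windows rose and 2 fell, while 1.76% of all windows tested rose and 4.02% fell, 5.78% in all. By 5 Mb interval, 5 rose from 270 Mb, 14 from 275, 23 from 280, 16 from 285, 15 from 290, 3 from 295 and 0 from 300 Mb. In that last interval 14 windows were tested, with a median log2 change of 0.03. The changes were small, with a median log2 of 0.43 among windows that rose and a highest value of 0.94. As in the tests of single lines, each line had its own term in this fit. Its p therefore rests on how leaf and root of a line disagree, and the spread among the 3 lines is not in that error. A window can pass without all 3 lines lying above B73. Some of the 76 were high in a single line of the 3, such as 299.8 Mb in id1 (log2 of the contrast 0.69) and 292.0 Mb in id4 (0.66).

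With leaf alone, where 5 lines faced the single B73 library, no distal window passed in edgeR. At an unadjusted p under 0.05, 102 were higher and 3 lower, counts without a share over all windows. They all rest on the same B73 leaf library, so they are not independent of each other. With root alone, where 3 lines faced 1 B73 library, none passed either, and the median log2 change was 0.14. DESeq2 called 48 that rose in the contrast of both tissues, and leaving out id1 left 47, both without a share over all windows.

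Among the windows that rose in this contrast, that at 284.4 Mb changed most. It held 39.5 CPM in id1 leaf, 27.3 in id4, 26.1 in 9d9a, 31.2 in 714 and 27.7 in 714H, against 15.1 in B73. In root it held 35.3 CPM in id1, 22.2 in id4 and 17.0 in 9d9a, against 13.4 in B73. B73 was thus the lowest library in each tissue, with id1 the highest. The log2 change was 0.94 ± 0.11 (SE; edgeR adjusted p = 3.07e-05).

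The window at 284.8 Mb behaved alike. Its leaf levels were 72.97 CPM in id1, 62.5 in id4, 50.8 in 9d9a, 58.1 in 714 and 57.0 in 714H, against 30.7 in B73, and its root levels 62.3, 51.5 and 54.3 CPM in id1, id4 and 9d9a, against 35.4 in B73. Again neither B73 library overlapped the others, and the log2 change was 0.85 ± 0.11 (edgeR adjusted p = 7.23e-05). Of the most read windows, that at 289.5 Mb rose, with 285 to 325 CPM in the other 5 leaf libraries, where B73 held 179. In the other 3 root libraries it held 261 to 298 CPM, where B73 held 229 (log2 0.53, adjusted p = 0.00159 in edgeR).

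The opposite pattern was found at 274.3 Mb, where B73 was high. The other lines held 3.39 CPM in id1 leaf, 3.82 in id4, 4.84 in 9d9a, 3.72 in 714 and 3.40 in 714H, against 13.8 in B73. Their roots held 2.49, 2.47 and 1.42 CPM in id1, id4 and 9d9a, against 8.80 in B73. These values rest on 16 to 41 reads in the other lines, against 253 in B73 leaf and 107 in B73 root. The window fell in each line, by a log2 of -1.92 ± 0.24 (SE) in id1, -1.84 ± 0.24 in id4 and -1.89 ± 0.24 in 9d9a, with edgeR adjusted p from 3.38e-05 to 9.15e-05. It was the only distal window of those tested in edgeR that fell in 9d9a. In the contrast of the 3 lines with B73, it fell along with the window at 298.0 Mb.

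Other windows set single lines or stocks apart. At 299.8 Mb, beside the most read window of the region, leaf and root of id1 held 62.8 and 60.4 CPM. The other lines had 20.3 in id4, 16.4 in 9d9a, 21.2 in 714 and 15.8 in 714H leaf, and B73 had 17.4. In root they had 17.8 in id4 and 14.5 in 9d9a, and B73 had 15.4. Only the id1 libraries were high. The log2 change in id1 was 1.91 ± 0.11 (edgeR adjusted p = 4.65e-09), against 0.20 in id4 and -0.04 in 9d9a, which did not pass.

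At 292.0 Mb id4 shared a high level with the 714 stocks. The window held 80.7 CPM in id4 leaf, 120.1 in 714 and 127.9 in 714H, while id1 and 9d9a held 39.2 and 38.7 CPM and B73 30.7. In root id4 had 91.1 CPM, against 30.0 in id1, 33.9 in 9d9a and 30.1 in B73. The log2 change in id4 was 1.50 ± 0.13 (edgeR adjusted p = 1.24e-06). At the nearby window at 291.8 Mb id4 was near B73, while 714 and 714H were again high. It held 358 CPM in id1 leaf, 239.9 in id4, 374 in 9d9a, 395 in 714 and 377 in 714H, against 231 in B73. In root it held 305 CPM in id1, 236 in id4 and 376 in 9d9a, against 242 in B73.

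A short stretch was lower in id1 alone. At 292.9 Mb leaf and root of id1 held 12.3 and 14.0 CPM, against 28.3 and 28.5 for B73, and the other libraries had 24.4 to 32.9. The log2 change was -1.12 ± 0.13 (edgeR adjusted p = 1.45e-05). Of the 6 neighbouring windows from 292.6 to 293.1 Mb, 5 fell in id1, with log2 changes from -0.61 to -1.12. The remaining one, at 293.0 Mb, had a log2 change of -0.72 (adjusted p = 0.0986). None of the 6 passed in id4 or 9d9a. The windows on either side, at 292.5 and 293.2 Mb, had log2 changes of -0.11 and 0.37 in id1, neither past the threshold. The 274.3 Mb window was the other 1 of the 6 that fell in id1.

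**Figure D4:**
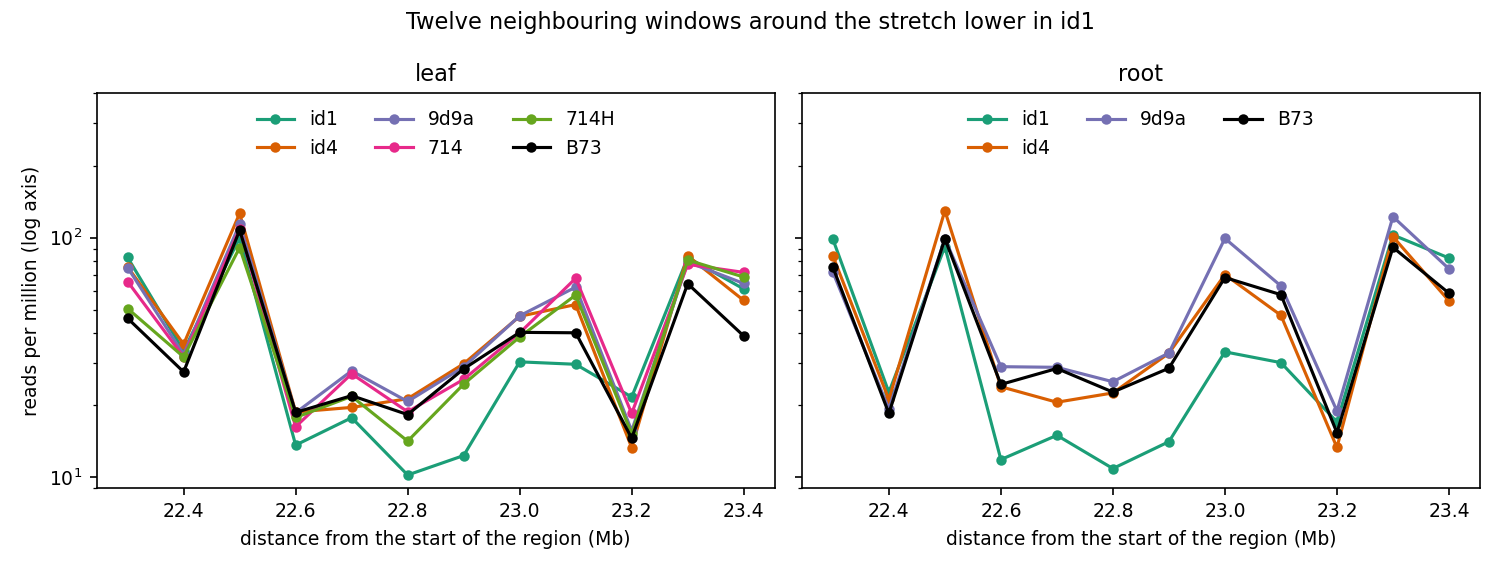
Levels (CPM, log axis) of 12 neighbouring windows, against distance from the start of the region (Mb), in leaf (left) and root (right), 1 line per maize line. The id1 libraries lie below the others from 22.6 to 23.1 Mb along the region and return to them on both sides.

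In id4 the windows that fell besides 274.3 Mb changed less. At 298.0 Mb leaf and root of id4 held 123 and 99.3 CPM, against 162 and 164 for B73 (log2 -0.57 ± 0.12, edgeR adjusted p = 0.00891). The changes at 295.6, 295.9 and 274.2 Mb were -0.48, -0.37 and -0.34, and DESeq2 did not call these 3. That at 274.2 Mb was also lost with library totals (adjusted p = 0.0823) and without id1 (0.0789). The windows that rose most in id4 after 292.0 Mb were at 284.2 Mb (1.27 ± 0.33), 287.0 Mb (0.89), 284.4 Mb (0.79) and 284.8 Mb (0.78). The change at 284.2 Mb is imprecise, since its level was 0.886 to 2.82 CPM, and DESeq2 did not call it.

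In 9d9a the windows that rose most were at 284.9 Mb (log2 0.87 ± 0.13), 292.1 Mb (0.85 ± 0.13), 291.2 Mb (0.76), 278.9 Mb (0.75) and 284.5 Mb (0.75). At 292.1 Mb leaf and root of 9d9a held 81.1 and 129 CPM, against 53.1 and 66.4 for B73. The call at 291.2 Mb was lost with library totals (adjusted p = 0.0628) and with DESeq2 (0.304). In id1 the remaining windows that rose most were at 284.4 Mb (1.40 ± 0.13), 284.8 Mb (1.03 ± 0.13), 282.0 Mb (0.84) and 290.7 Mb (0.81), and DESeq2 did not call that at 290.7 Mb (adjusted p = 0.15).

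Dose of the 714 allele was compared in leaf, taking the 714 line as homozygous, with 0 copies in B73, id1, id4 and 9d9a, 1 in 714H and 2 in 714. Over the region 714H was about as far from B73 as 714, with median log2 ratios of 0.25 and 0.24, rather than midway. Leaf lines without the allele lay as far from B73, at 0.24 in id1, 0.23 in id4 and 0.22 in 9d9a. These ratios therefore do not show an effect of the allele, and the median slope per copy was 0.03. Only 2 distal windows of 313 rose per copy in edgeR, where 0.639% of all windows tested rose, and 0 fell, where 1.71% fell (2.35% in either direction). At an unadjusted p under 0.05, 17 were higher and 7 lower, and DESeq2 called 3 that rose and 0 that fell. These counts have no share over all windows beside them. Among the distal windows too 0.639% rose, so the share did not stand apart from that of the genome.

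At 280.4 Mb the level was 19.8 CPM in B73, 21.9 in id1, 23.6 in id4 and 21.4 in 9d9a, against 68.7 in 714H and 81.4 in 714. The stocks with the allele stood apart from the other 4 libraries, whose range was narrow. As libraries, 714H lay 3.46-fold over B73 (exact 95% counting interval 3.05 to 3.94) and 714 lay 4.10-fold over it (3.62 to 4.65). The slope was 1.07 ± 0.15 (SE) in log2 per copy, with an edgeR adjusted p of 0.0281. It was 1.66 without 714 and 0.94 without 714H, so the size per copy depends on which of these libraries is kept. The other window, at 290.0 Mb, held 72.4 to 80.8 CPM without the allele, 100.2 in 714H and 108 in 714, with a slope of 0.26 ± 0.05 (edgeR adjusted p = 0.0439). Both calls were lost when B73, id1, id4 or 9d9a was left out, with adjusted p from 0.0674 to 0.118, and that at 290.0 Mb also without 714 (0.0886). Only stocks of 714 carry the allele, so its dose and their background cannot be told apart.

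Leaf was compared with root over the 4 lines sequenced in both, to find windows whose small RNA depends on the tissue. The region as a whole took a share of reads of 2.23% ± 0.143 in leaf and 2.24% ± 0.132 in root (SD, n = 4 lines each). The difference of -0.01 percentage points was within the spread of lines (exact two-sided permutation p = 0.857, where the smallest possible is 0.0286). In bulk tissue, fewer cells of a type and less RNA per cell cannot be told apart.

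Of 312 distal windows tested, 19 were higher in leaf and 47 lower in edgeR, against 11.3% and 13.9% of all windows tested, or 25.3% in both directions. As shares of the distal windows these were 6.09% and 15.1%. With line as a block, 48 of 313 were higher and 73 lower. Leaving out id1 left 9 higher in leaf, and leaving out id4 or 9d9a left 12 each. These counts have no share over all windows beside them. Whether the region differs from the genome in those fits therefore cannot be read from them. The median log2 difference was -0.04 over the region and 0.02 over all windows tested, and 5 of the called windows differed over 2-fold. Of the 47 that were lower, 13 lay at 275 to 280 Mb and 11 at 285 to 290 Mb.

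The window with the largest tissue difference lay at 288.9 Mb. It held 33.7 CPM in id1 leaf, 35.5 in id4, 23.1 in 9d9a and 14.2 in B73, against 202, 189, 241 and 154 CPM in the roots of those lines. Every root library was above every leaf library, and B73 was the lowest line in each tissue. The 714 and 714H leaf libraries, outside the test, were at 23.1 and 23.6 CPM. The log2 difference was -2.92 ± 0.32 (SE; edgeR adjusted p = 0.00112).

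The next were at 300.5 and 276.6 Mb. At 300.5 Mb leaf held 11.5 ± 0.83 CPM and root 37.1 ± 5.38 CPM (SD over n = 4 lines). The log2 difference was -1.71 ± 0.11 (SE; edgeR adjusted p = 7.59e-06). At 276.6 Mb leaf held 19.7 ± 1.31 CPM and root 61.2 ± 3.86 CPM, a difference of -1.67 ± 0.09 (adjusted p = 2.45e-06). In neither did the groups overlap. The other 7 of the 10 that were lowest in leaf relative to root, at 278.5, 282.9, 288.4, 277.9, 296.5, 275.2 and 278.7 Mb, had differences from -0.94 to -0.77.

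Higher in leaf were fewer windows, led by that at 283.8 Mb. Its level was 79.1 CPM in id1 leaf, 77.1 in id4, 76.0 in 9d9a and 51.8 in B73, against 33.3, 35.5, 29.5 and 24.7 CPM in root. B73 was below the other lines in both tissues, yet its leaf library was still above every root library. The log2 difference was 1.18 ± 0.15 (edgeR adjusted p = 0.000638). At 289.9 Mb it was 1.10 ± 0.23, on 2.77 to 5.19 CPM in leaf and 1.42 to 1.95 in root. The other 8 of the 10, at 274.1, 294.8, 292.4, 277.4, 298.6, 270.3, 279.0 and 281.5 Mb, differed by 0.80 to 0.45. Leaving out single lines ended the calls at 274.1 Mb, with adjusted p from 0.0902 to 0.156, at 298.6 Mb, from 0.0896 to 0.194, and at 279.0 Mb, at 0.0504 without B73 and 0.0518 without 9d9a.

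**Figure D5:**
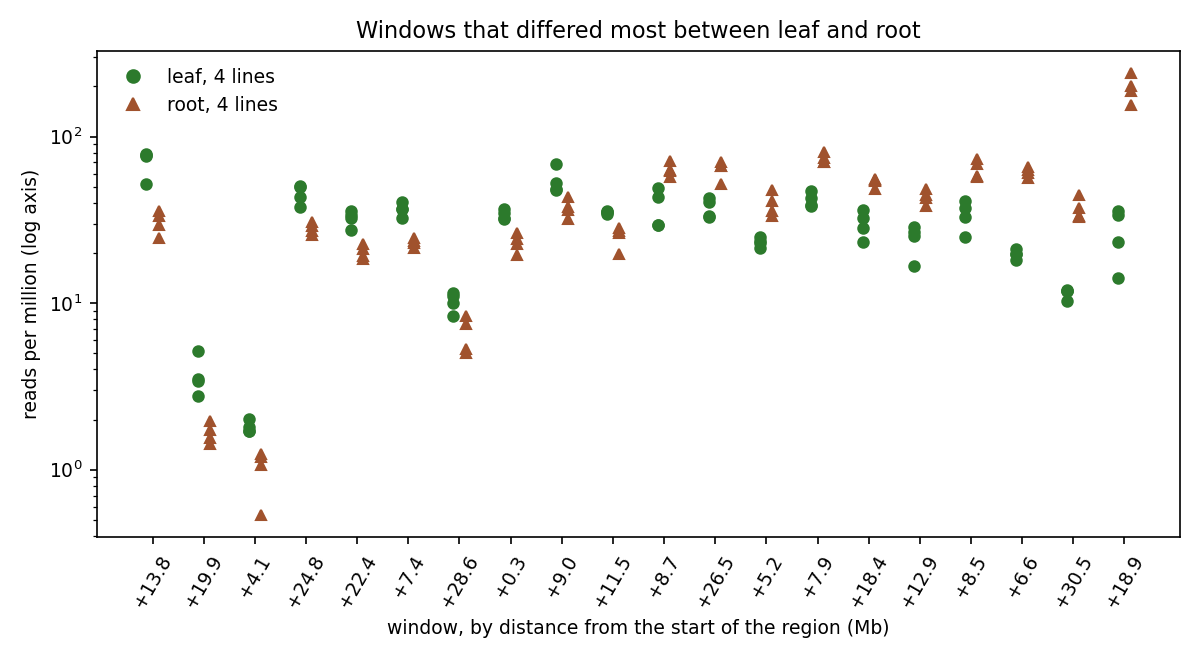
Levels (CPM, log axis) of the 20 windows farthest apart between leaf and root, named by distance from the start of the region (Mb). Circles are the 4 leaf and triangles the 4 root libraries, with the windows higher in leaf on the left. The window at +18.9 Mb, at the far right, has 154 CPM or more in every root library and 35.5 CPM or less in every leaf library.

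In each of the 4 lines the median tissue difference was lower over the distal windows than elsewhere. Over the distal windows id1 had a median log2 ratio of leaf over root of -0.02, id4 of 0.01 and 9d9a of 0.02, against -0.08 in B73. Elsewhere in the genome it was 0.01, 0.03 and 0.09 in id1, id4 and 9d9a, against 0.02 in B73. These ratios use library totals, and the TMM factor of 9d9a root was 0.943, so the sign of values this small depends on the scaling. With 1 library per line and tissue, the difference of B73 from the other lines in this ratio was not tested.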

How the data were processed

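The deposited files hold whole-number read counts per 100 kb window for each library, per the file headers and values. The submitters' processing notes name Bowtie for the reads. Not given in the sources used here are its settings, the genome build, the read lengths kept and how reads with several matches were treated. Whether the reads of all lines were matched to the same genome is not stated either. If so, a window's count can depend on how closely a line's sequence resembles it. Positions are window starts as deposited. The windows were not placed in genes, because the available annotation (Zm-B73-REFERENCE-NAM-5.0) could not be matched to their build.

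Counts were tested over the whole genome with edgeR 4.0.16 in R 4.3.3 (TMM, the default low-count filter, robust quasi-likelihood, Benjamini-Hochberg adjustment, threshold 0.05). DESeq2 1.42.0, library totals, no filter and each line left out were alternatives. Shares over all windows are given for the main edgeR fits alone. Leaf against root used the 8 libraries of 4 lines (6 residual degrees of freedom), the lines against B73 the same 8 with tissue as a covariate (3), and the 714 slope the 6 leaf libraries (4). Leaf and root of a line deviated together (correlations 0.63 to 0.85 from windows averaging 50 counts or more, against -0.53 to 0.01 between lines), so line was also fitted as a block. The fitting code was run on simulated counts of independent libraries. Such counts cannot show how the tests hold where libraries of a line deviate together. CPM use library totals. Medians cover windows averaging 5 counts or more, with a pseudocount of 1 CPM. No 2 libraries were duplicates. The closest pair, 714 and 714H leaf, differed with a chi-square over degrees of freedom of 5.48.

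The windows named are the 10 farthest in each direction between leaf and root with 1 direction in all 4 lines, the 5 farthest in each direction per line and for the slope, the 10 most and 5 least read, and those at the limit. Others (293.0, 292.5 and 293.2 Mb) were chosen after their values were seen, as were the contrast of 3 lines with B73 and its windows. The region and lists were chosen with earlier results of these data known.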

Additional observations from a re-analysis of the deposited data

Results flagged for a closer look

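In 118 sets of 4 root or 6 leaf libraries, covering the share of reads and the named windows, 11 had a library far from the rest by Dixon's criterion, where chance alone gives about 5.9. Most of these windows were named because a line or tissue stood apart in them, so a count above the chance value follows from the choice. B73 leaf was the library apart at 283.8 Mb (51.8 CPM, next 76.0), 289.5 Mb (178.7 CPM, next 284.9), 285.0 Mb (163.7 CPM, next 229.3) and 274.3 Mb (13.75 CPM, next 4.84). B73 root was apart at 274.3 Mb too (8.80 CPM, next 2.49). The id1 libraries stood apart at 299.8 Mb in leaf (62.79 CPM) and root (60.39 CPM), and id1 leaf at 292.9 Mb (12.28 CPM, next 24.4). The id4 root library was apart at 292.0 Mb (91.1 CPM, next 33.9). The 9d9a libraries were apart at 279.0 Mb in leaf (68.34 CPM, next 53.4) and at 278.2 Mb in root (1.06 CPM, next 0.71), the last on few reads.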

How the results depend on the processing

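Of 48 named results (leaf against root, single lines and the 714 slope), none changed sign and 37 kept their call in every alternative tried. Windows named for the contrast of 3 lines were not rerun one by one. With line as a replicate block, 48 windows were higher in leaf and 73 lower, against 19 and 47 without it. The block counts have no share over all windows beside them, and the block ended no named call. Leaving out a line gave 9 to 16 higher in leaf and 33 to 44 lower. DESeq2 called 35 windows that rose in id1, 25 that rose and 2 that fell in id4, and 48 that rose in the contrast of 3 lines with B73. That contrast gave 47 to 76 that rose and 2 to 5 that fell with a line left out. Fits of leaf alone (5 lines, with 714 and 714H) or root alone (3 lines) differ from it. There B73 is 1 library and lines had no term of their own, and no distal window passed in either direction. Without a line, id1 had 54 to 58 that rose and 6 to 8 that fell, id4 33 to 42 and 4 to 5, and 9d9a 39 to 56 and 1. The slope gave 0 to 2 that rose and 0 to 1 that fell with a library left out. The leaf minus root share difference, -0.0100 percentage points, turned to 0.0065 without id4 and 0.0008 without 9d9a (exact permutation p = 1 each), with a range from -0.0451 to 0.0065 over lines left out, so no direction holds. With TMM-adjusted library sizes 714 leaf had a median log2 ratio of 0.21 and 9d9a root of 0.18, against 0.24 and 0.10. The cause of these shifts was not tested. The line contrasts rest on 2 B73 libraries, and windows of a few reads cannot show differences of this size.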
